A study of Drosophila melanogaster with 12 samples.

Results

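ORC2 binding on chromosome 4 was described from every region of that chromosome in the 6 peak lists of a ChIP-seq study of Drosophila melanogaster larval fat body. ORC2 is a subunit of the Origin Recognition Complex (ORC). The lists of all peaks held 157 chromosome 4 regions of 4239 for 2nd instar, 91 of 2053 for mid-3rd instar and 80 of 706 for late-3rd instar. The lists of high-confidence peaks held 32 of 797, 18 of 307 and 5 of 60 at the same stages. Together these were 328 of 6998 merged regions and 55 of 1164 high-confidence peaks. No threshold and no measured value other than the chromosome was used to choose them.

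Fat body was dissected from wild-type OregonR male larvae, with the testes removed. Each sample pooled 120 larvae at 2nd instar and 60 at the later stages. Larvae of the 2nd instar were 67 to 68 h old and those of the mid-3rd instar 91 to 92 h, counted from egg laying, while late-3rd instar larvae were taken as they wandered. No group carried a mutation, a transgene or a treatment, and stage was the factor of the design. The number of larvae went with stage, so its part cannot be told apart from that of stage between 2nd instar and later. Each stage had 2 ORC2 libraries and 2 input libraries, 12 in all, and peaks were called in each replicate against input with MACS2 at a q-value under 0.05. A merged region joins the peaks of both replicates that lay close together, and a high-confidence peak has an irreproducible discovery rate (IDR) under 0.1 between the replicates. The lists hold no read counts, so the depth behind each library is unknown. Intervals that need it are not given, and a site without a peak was only not called.

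ORC binds chromosomes before S phase and loads the replicative helicase at places that can then serve as origins of replication. In Drosophila, ORC is often found at open chromatin near the starts of active genes. Chromosome 4 is the small dot chromosome, which is packed largely in heterochromatin marked by HP1 and yet carries many expressed genes. Fat body cells become polyploid during larval growth through repeated rounds of S phase without division.

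Peaks on chromosome 4 became fewer with stage, and by late-3rd instar less so than on the other chromosomes. At 2nd instar, replicate 1 had 192 chromosome 4 peaks and replicate 2 had 143. The mid-3rd instar replicates had 55 and 99, and the late-3rd instar replicates had 59 and 51. Both 2nd instar libraries lay above all 4 later ones, and the ranges of the later stages overlapped. The means were 167.5 ± 34.7, 77.0 ± 31.1 and 55.0 ± 5.66 peaks (SD, n = 2 each). Across the 6 libraries the slope on stage order was -56.25 peaks per stage (two-sided exact permutation test over all 90 arrangements, p = 0.0444, smallest possible p 0.0222). When the regions holding a peak of each library were counted instead, the slope was -34.5 regions per stage with p = 0.0667 by the same exact permutation test, so the call did not hold with this unit. The mean late-3rd instar count on chromosome 4 was 32.8% of the mean 2nd instar count, beside 17.0% on the X and 8.04 to 10.6% on 2L, 2R, 3L and 3R. At mid-3rd instar chromosome 4 was at 46.0%, below the X at 57.5% and above the other arms at 29.2 to 39.2%.

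The share of each library's peaks that fell on chromosome 4 was 4.49 and 3.73% at 2nd instar, 5.91 and 4.97% at mid-3rd instar and 15.9 and 10.2% at late-3rd instar. The 3 stages did not overlap in this share. Means were 4.11 ± 0.535%, 5.44 ± 0.671% and 13.1 ± 4.06% (SD, n = 2 each), and the slope was 4.48 percentage points per stage. Its p of 0.0222 in the exact permutation test was the smallest that 6 libraries allow, and became 0.1 after Benjamini-Hochberg adjustment over 6 chromosomes, so the trend did not pass 0.05 once adjusted. Between late-3rd and 2nd instar alone the exact permutation test gave p = 0.333, the smallest possible with 2 libraries against 2. Among the other chromosomes the unadjusted p of the exact permutation test was 0.978 for 2L and between 0.0444 and 0.0889 for 2R, 3L, 3R and X. The share also rose on the X, by 2.54 percentage points per stage. The slope was 0.0368 on 2L and between -3.10 and -1.87 on 2R, 3L and 3R.

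**Figure D1:**
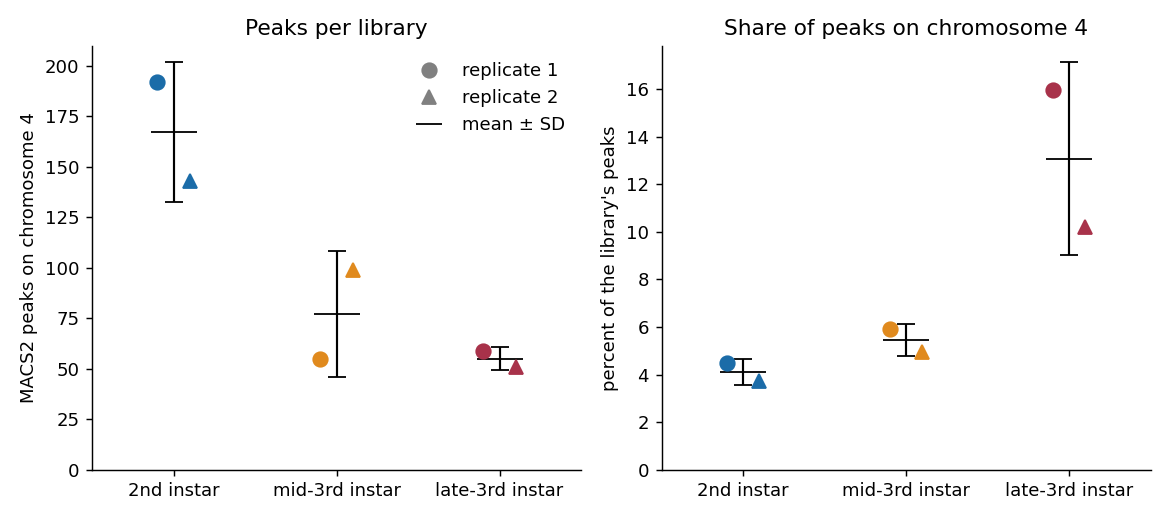
MACS2 peaks on chromosome 4 in each ORC2 library (left) and their percent of all peaks of that library (right), by stage, with circles for replicate 1, triangles for replicate 2 and bars for the mean ± SD of 2 libraries. Peak numbers were 59 and 51 at late-3rd instar, against 192 and 143 at 2nd instar, while the share was 15.9 and 10.2% at late-3rd instar, against 4.49 and 3.73% at 2nd instar.

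The replicates shared fewer chromosome 4 regions at each later stage. In stage order, peaks of both replicates were present in 75 of 157, 34 of 91 and 14 of 80 regions, or 47.8, 37.4 and 17.5%. The pooled 2L, 2R, 3L, 3R and X, called the large arms here, had 53.1, 28.0 and 11.8%. Regions from replicate 1 alone numbered 57, 9 and 37 at the 3 stages and those from replicate 2 alone 25, 48 and 29, so the library that added more single-replicate regions changed from stage to stage. Counted by regions with both replicates, the late-3rd instar list had 18.7% of the 2nd instar number, against 51.0% when all merged regions were counted and 15.6% by high-confidence peaks.

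Positions below are those of the lists, read as Release 6 of the genome for reasons given with the processing. Chromosome 4 regions were found from chr4:35811 to chr4:1346780, and the density was taken over the 1.346 Mb between the first annotated gene and the last region. Merged regions per 100 kb numbered 11.7 on chromosome 4 and 3.08 on the large arms at 2nd instar, 6.76 and 1.48 at mid-3rd instar, and 5.94 and 0.469 at late-3rd instar. The ratio of chromosome 4 to the large arms was therefore 3.78, 4.56 and 12.7 at the 3 stages. With each replicate left out in turn it was between 3.35 and 3.91 at 2nd instar and between 10 and 18.5 at late-3rd instar. It was 9.24 in the late-3rd instar high-confidence list. Neighbouring regions were a median of 3774, 5934 and 7126 bp apart on chromosome 4 and 9586, 25788 and 70588 bp apart on the large arms. At 2nd instar 36.3% of the chromosome 4 span lay within 1 kb of a region, against 9.08% on the large arms, and at late-3rd instar 16.7%, against 1.25%.

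Regions were spread along nearly the whole chromosome at 2nd instar but not evenly. In successive windows of 100 kb the 2nd instar list had between 2 and 20 regions, the mid-3rd instar list between 1 and 14 and the late-3rd instar list between 0 and 15. The most regions at 2nd instar lay between 100 and 200 kb, with 20. At both later stages most lay between 1000 and 1100 kb, where the mid-3rd instar list had 14 and the late-3rd instar list 15, beside 17 in the 2nd instar list. That window, which holds apolpp and Actbeta, had 18.8% of the chromosome 4 regions at late-3rd instar, against 10.8% at 2nd instar. Beyond the last annotated gene, which ends at position 1271759, there were 11, 8 and 5 regions at the 3 stages and 3 high-confidence peaks, all of them at 2nd instar.

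A sparse stretch lay between 700 and 900 kb in all 6 libraries. Its first window, 700 to 800 kb, had 2 and 3 peaks in the 2nd instar libraries, 1 and 2 in the mid-3rd instar libraries and 0 and 0 in the late-3rd instar libraries. The next window, 800 to 900 kb, had 4 and 2, 1 and 1, and 0 and 1 peaks. Genes cover 84.4 and 87.6% of these windows but are few, with 4 and 8 genes, against 9 to 13 in each of the other windows up to 1200 kb. The longest interval without a region at 2nd instar ran for 81631 bp (chr4:697188-778818) and held ey, which encodes the Pax6 eye regulator, and bt, which encodes the giant muscle protein projectin. The high-confidence peak at myo and ey (chr4:695923-698245) extended past the merged region into this interval at the edge of ey. At late-3rd instar the longest was 171303 bp (chr4:695534-866836) and added MED26, a Mediator subunit, Sox102F, a SoxD transcription factor, and fd102C, a forkhead transcription factor. At mid-3rd instar the same stretch was split by a region at MED26 into intervals of 89370 and 77905 bp.

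Other long intervals recurred in part between stages. The longest at mid-3rd instar was 97254 bp (chr4:210497-307750), between Crk and Rad23, and spanned Syt7, which encodes a synaptotagmin, where 4 merged regions were present at 2nd instar. At late-3rd instar 77891 bp between PMCA and a region at chr4:430563-431162 held Hcf, a chromatin regulator, and 77163 bp spanned zfh2, a zinc-finger homeodomain gene. The mid-3rd instar interval at zfh2 was 70717 bp long and the longest 2nd instar one that overlapped the gene 35971 bp. The next longest at 2nd instar were 48886 bp over unc-13, a synaptic vesicle priming gene, and 44810 bp between MED26 and Sox102F, reaching into both. The interval over unc-13 was present at every stage and measured 55261 bp in the mid-3rd instar list and 55783 bp in the late-3rd instar list. In the high-confidence lists the longest intervals were 129, 213 and 710 kb, as those lists are shorter.

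**Figure D2:**
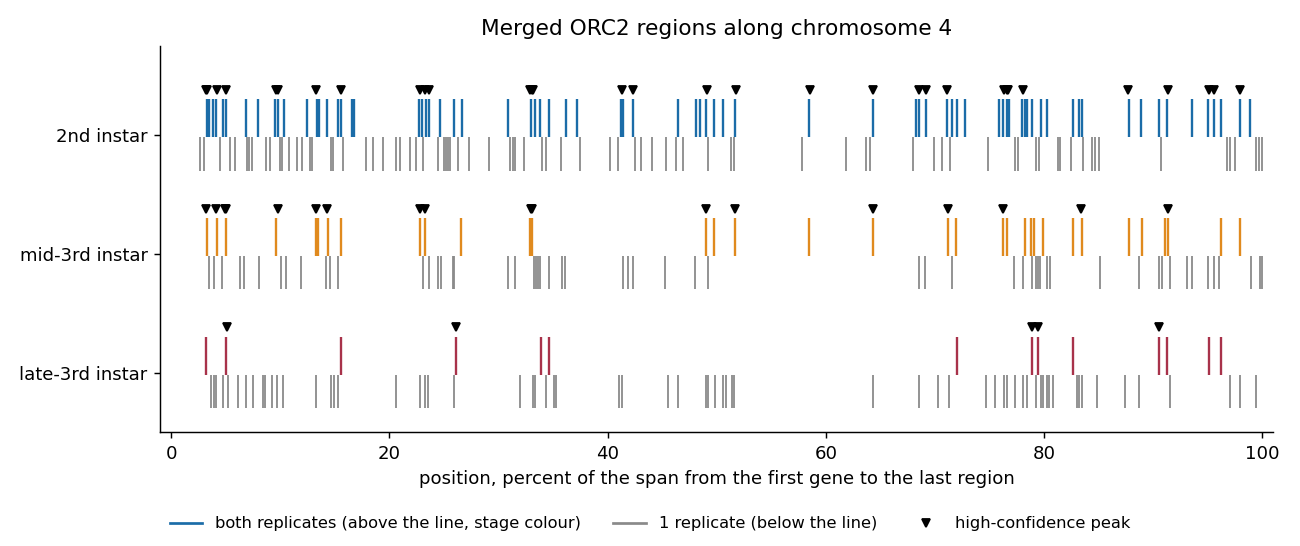
Midpoints of the merged ORC2 regions along chromosome 4 at 2nd instar (top), mid-3rd instar and late-3rd instar (bottom), in percent of the span, with coloured ticks above each line for regions with peaks of both replicates (75, 34 and 14), grey ticks below it for regions of 1 replicate, and triangles for high-confidence peaks (32, 18 and 5). The sparse stretch of 700 to 900 kb, at just over the middle of the span, has few ticks at each stage.

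Widths were set partly by the way the lists were built. Every region made of a single peak was exactly 600 bp wide, which in stage order was so for 73 of 157, 54 of 91 and 60 of 80 regions. Among the rest, 30, 10 and 6 regions were wider than 2 kb. The 3 widest at 2nd instar lay in CaMKI, a calcium- and calmodulin-dependent kinase gene (chr4:445827-453339, 7513 bp), at Actbeta, an activin ligand gene (6947 bp), and at PIP4K and Mitf (5004 bp). The CaMKI region joined 6 peaks of replicate 1 and 5 of replicate 2. At mid-3rd instar the widest lay at apolpp and Actbeta (4294 bp), at Ank and anne (4034 bp) and at myo and ey (3540 bp). At late-3rd instar they lay at Dyrk3 and Cadps (3133 bp), at sv and Cals (2306 bp) and at Zyx and apolpp (2248 bp).

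Sites of the 2nd instar that were still called later made up a larger part of the chromosome 4 list than of the large arms. A 2nd instar region was counted as kept where a region of the later list lay within 1 kb, the distance at which the study treats peaks as overlapping. At mid-3rd instar 76 of 157 chromosome 4 regions were kept, or 48.4%, where 37% of all 2nd instar regions of the series and 36.6% of those on the large arms were kept. At late-3rd instar 61 of 157 were kept, or 38.9%, where 12.8% of all 2nd instar regions and 11.7% of those on the large arms were kept. In single later libraries the kept share on chromosome 4 and on the large arms was 26.8 and 16.8% in mid-3rd instar replicate 1 and 43.9 and 32.4% in mid-3rd instar replicate 2. It was 24.8 and 4.35% in late-3rd instar replicate 1 and 25.5 and 9.20% in late-3rd instar replicate 2.

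Chromosome 4 was higher in 4 of 4 later libraries, by 14.6 percentage points on average, and lay above the highest single arm in each. A two-sided exact sign-flip permutation test over these libraries gave p = 0.13, the smallest that 4 libraries allow, so the design cannot pass 0.05. The difference was 13.1 points with direct overlap and 28.9 points with a distance of 5 kb. Since regions are denser on chromosome 4, a match within 1 kb is more frequent there whatever the site. At mid-3rd instar 19.4% of the chromosome 4 span lay within 1 kb of a region, against 4.02% on the large arms, a gap of 15.4 points beside a gap of 11.8 points in the kept share. At late-3rd instar the gap in the span was 15.5 points and that in the kept share 27.1 points. The span share is that of a point, while the regions matched have width, so these gaps do not measure the part of density. That part was not tested at either stage. With direct overlap, 44.6 and 33.8% of the chromosome 4 regions were kept at mid-3rd and late-3rd instar. Within 5 kb, 65.6% were kept at late-3rd instar.

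**Figure D3:**
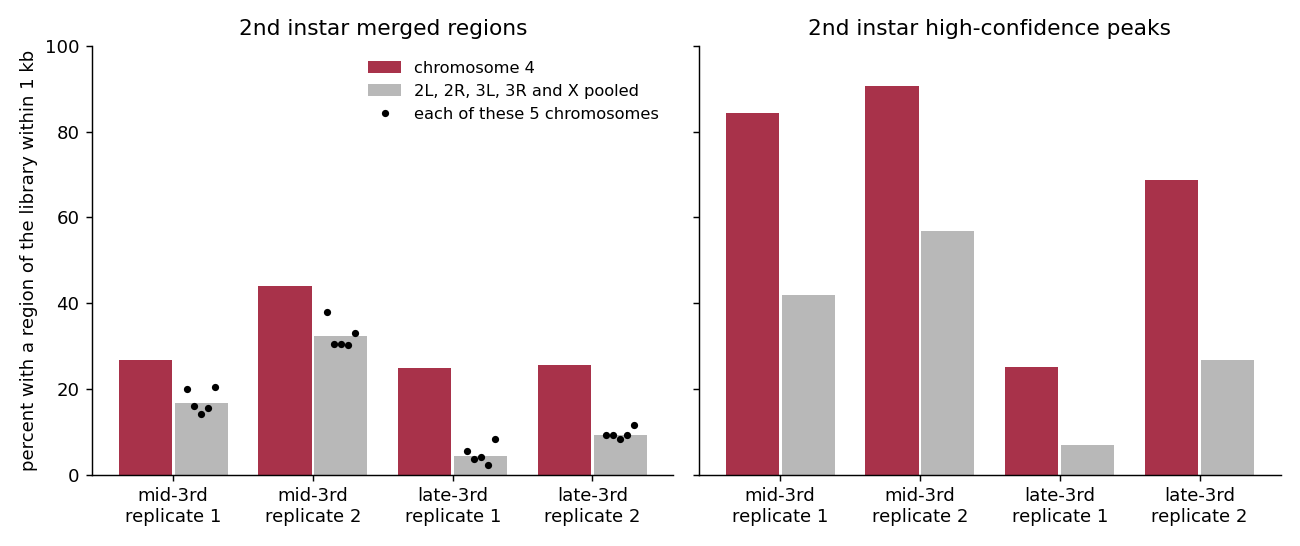
Percent of 2nd instar merged regions (left) and 2nd instar high-confidence peaks (right) with a region of each of the 4 later libraries within 1 kb, on chromosome 4 (red) and on 2L, 2R, 3L, 3R and X pooled (grey). In the left panel a dot marks each of these 5 chromosomes. For merged regions chromosome 4 was at 26.8, 43.9, 24.8 and 25.5% and the pooled arms at 16.8, 32.4, 4.35 and 9.20%.

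Kept and lost chromosome 4 regions differed in how well the 2nd instar replicates supported them. Of the 157 regions, 46 were kept at both later stages, 30 at mid-3rd instar alone, 15 at late-3rd instar alone and 66 at neither. Among the 46, 87.0% had peaks of both 2nd instar replicates, the median width was 1846 bp and 54.4% had their midpoint within 1 kb of a gene end. Among the 66 lost regions, 15.2% had peaks of both replicates, the median width was 600 bp and 24.2% lay at a gene end. Of the chromosome 4 regions with both replicates at 2nd instar 78.7 and 61.3% were kept at mid-3rd and late-3rd instar, against 49.0 and 17.8% on the large arms. For chromosome 4 regions of a single replicate the shares were 20.7 and 18.3%, against 22.6 and 4.83%. At mid-3rd instar the higher share on chromosome 4 was thus seen in regions of both replicates and not in those of a single one.

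Read in the other direction, later regions seldom lay at new places. At mid-3rd instar 84 of 91 chromosome 4 regions had a 2nd instar region within 1 kb, or 92.3%, beside 76.6% over all chromosomes. At late-3rd instar 62 of 80 did, or 77.5%, beside 77.1% over all chromosomes, so the late-3rd instar share on chromosome 4 was that of the whole list. It was 14 of 14 for regions with both late-3rd instar replicates, 22 of 37 for those of replicate 1 alone and 26 of 29 for those of replicate 2 alone. On the large arms these shares were 89.0, 54.3 and 87.6%. At 2nd instar 36.3% of the chromosome 4 span lay within 1 kb of a region, against 9.08% on the large arms. A match was therefore more frequent on chromosome 4 whatever the site, and the part of density was not tested.

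When regions of the 3 lists were joined within 1 kb, chromosome 4 had 168 sites, of which 39 held a region at each stage, or 23.2%, against 7.60% of the sites on the large arms. A further 14 sites, or 8.33%, were present at 2nd and late-3rd instar without mid-3rd instar, against 2.44% on the large arms. At 2nd and mid-3rd instar only there were 27, or 16.1%, against 23.7%. At both later stages only there was 1, or 0.595%, against 0.501%. The 2nd instar alone accounted for 66 sites, or 39.3%, against 53.5% on the large arms. The mid-3rd alone had 5, or 2.98%, against 9.69%, and the late-3rd alone 16, or 9.52%, against 2.55%. All 16 late-3rd instar sites were single peaks 600 bp wide, and 15 of them came from replicate 1. Of the 66 sites seen only at 2nd instar, 56 came from a single library. The 39 sites became 9.72% of the sites without replicate 2 of each stage and 28.6% without replicate 1, and 10.96% when only regions with both replicates were joined.

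Peaks of all 6 libraries were present at 10 of the 168 chromosome 4 sites, or 5.95%, and at 46 sites on the large arms, or 1.00%. Another 20 chromosome 4 sites had peaks of 5 libraries, or 11.9%, against 3.79% on the large arms. A peak in 1 library only was found at 77 sites, or 45.8%, against 42.2%. Joining within 1 kb makes long chains where regions are dense, so a site can hold several regions of 1 stage. The site over apolpp and Actbeta (chr4:1069429-1085159), for example, held 3, 5 and 5 regions at the 3 stages.

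High-confidence peaks were read as single places. Those of lowest IDR at 2nd instar lay at Gyf (chr4:866216-867430, IDR 1.67e-05), a gene of translational repression, across RpS3A and pan (chr4:66020-70696, IDR 4.91e-05), and at ci (chr4:55858-58114, IDR 6.69e-05). RpS3A encodes a protein of the small ribosomal subunit, pan the TCF transcription factor of the Wnt pathway and ci the transcription factor of the Hedgehog pathway. At mid-3rd instar the lowest IDR was at PlexB (chr4:43336-44311, IDR 0.00223), a semaphorin receptor gene, at anne (chr4:131837-132739, IDR 0.00546) and at gw (chr4:659034-661808, IDR 0.0112), which encodes a GW182 protein of microRNA silencing. IDR ranged up to 0.0802, 0.0986 and 0.0992 in the 3 lists, and the lowest late-3rd instar value was 0.0414. IDR depends on the number and agreement of the peaks in each pair of libraries, so its values are not compared between stages.

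All 32 high-confidence peaks of the 2nd instar had a merged mid-3rd instar region within 1 kb, beside 65.4% over all chromosomes and 64.1% on the large arms. At late-3rd instar 24 of 32 had a merged region, or 75.0%, beside 30.9% over all chromosomes and 28.9% on the large arms. By library, 27, 29, 8 and 22 of the 32 had a region in mid-3rd instar replicates 1 and 2 and late-3rd instar replicates 1 and 2. The late-3rd instar replicates thus differed from each other by more than the mid-3rd instar ones. Of the 32, 5 had a region in all 6 libraries, 16 in 5, 7 in 4 and 4 in 3. The 5 lay at PlexB, at a noncoding RNA gene next to it (lncRNA:CR44440), at RpS3A and pan, at Crk, which encodes a signalling adaptor, and between Dyrk3 and Cadps (named after their values were seen). The 8 peaks without a late-3rd instar region within 1 kb included those at lgs, pho, MED26 and 4E-T. At 4E-T the mid-3rd instar high-confidence peak did have one. Elsewhere in pho there was a late-3rd instar region, a single peak of replicate 1.

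**Figure D4:**
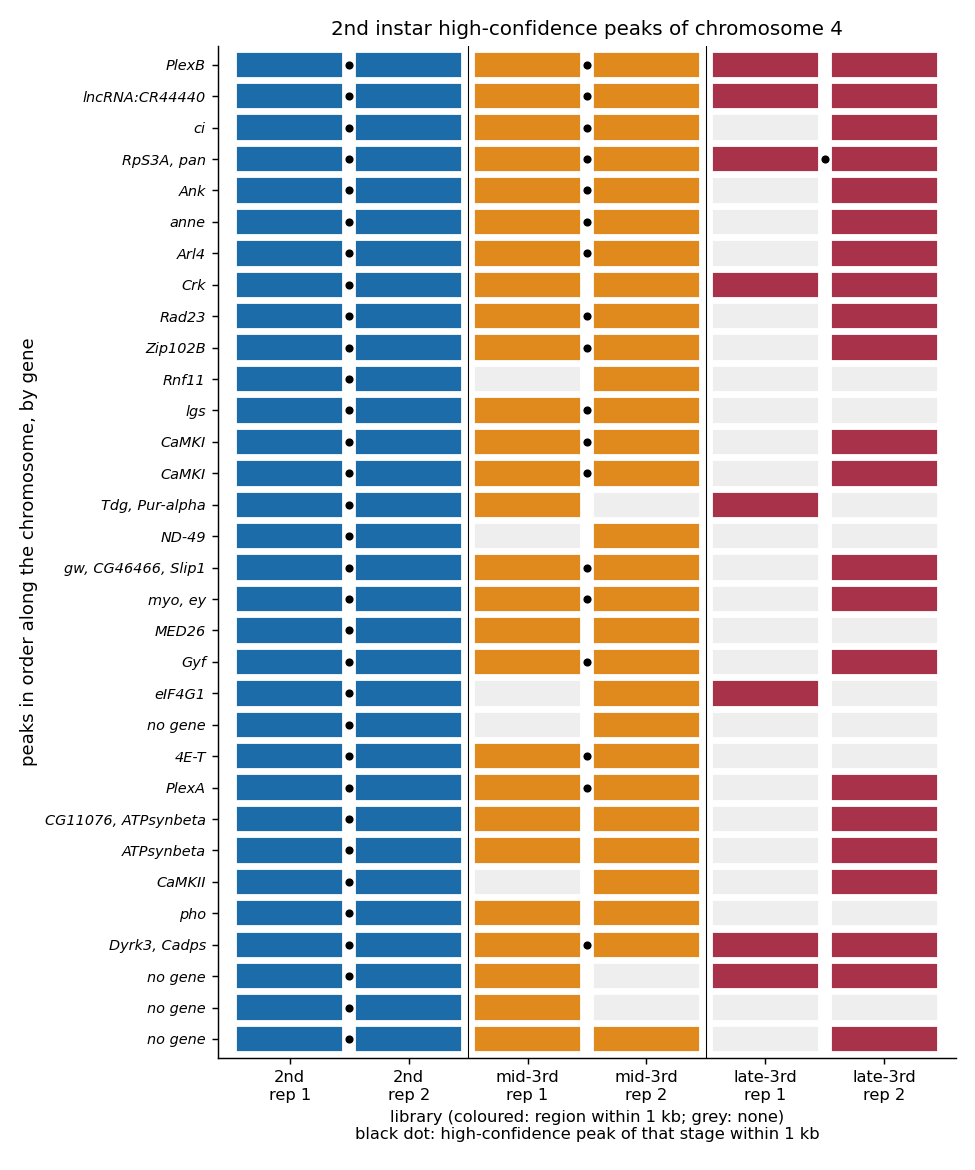
Each row is 1 of the 32 high-confidence 2nd instar peaks of chromosome 4, in order along the chromosome and labelled by the genes it overlaps, and each column is a library, coloured where it had a region within 1 kb and grey where it had none; black dots mark a high-confidence peak of that stage within 1 kb. Late-3rd instar replicate 1 was coloured in 8 rows and replicate 2 in 22, and 1 row, RpS3A and pan, had dots at each stage.

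Joined within 1 kb, the 55 high-confidence peaks made 33 sites, of which 1 was high-confidence at each stage, 13 at a pair of stages and 19 at a single stage. The site at all stages spanned RpS3A and the neighbouring end of pan, with 1, 2 and 1 peaks. The 2-stage sites of lowest IDR were all of 2nd and mid-3rd instar. They lay at Gyf, at ci, at Rad23, which takes part in DNA repair and protein degradation, at Ank and anne, at Dyrk3 and Cadps, at PlexB, at 4E-T, a gene of translational repression, at myo and ey, and at Zip102B, a zinc transporter gene. Ank encodes ankyrin, Dyrk3 a protein kinase, Cadps a factor of vesicle release and myo a TGF-beta ligand. Their 2nd instar IDR ran from 1.67e-05 to 0.0164. Of the 32 peaks of the 2nd instar, 18 had a high-confidence mid-3rd instar peak within 1 kb and 1 had a late-3rd instar one, or 56.2 and 3.12%, against 20.1 and 3.55% on the large arms.

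High-confidence peaks of late-3rd instar numbered 5. They were at pan (chr4:68360-69727, IDR 0.0423), in PMCA (chr4:351907-352518, IDR 0.0474), at Zyx and apolpp (chr4:1062668-1063176, IDR 0.0414), in apolpp (chr4:1069653-1070791, IDR 0.0992) and in Mitf (chr4:1219202-1220706, IDR 0.0574). PMCA encodes a plasma membrane calcium pump, Zyx the cytoskeletal protein zyxin, apolpp the precursor of the main lipoprotein that the fat body secretes, and Mitf a basic helix-loop-helix transcription factor. Only the peak at pan had a high-confidence peak at an earlier stage. This was 1 of 5 against 2nd instar and against mid-3rd instar, or 20.0%. On the large arms 58.5 and 56.6% of 53 peaks had one. All 5 had a merged 2nd instar region within 1 kb, against 84.9% on the large arms. The PMCA peak had none in either mid-3rd instar library, and the other 4 had at least 1. With 5 peaks in the list, each stands for 20.0% of it.

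apolpp (chr4:1060969-1077273, 16.3 kb) overlapped 4, 7 and 5 merged regions at the 3 stages. It held 7 and 7 peaks in the 2nd instar libraries, 9 and 4 in the mid-3rd instar libraries and 2 and 6 in the late-3rd instar libraries. The ranges of the 3 stages overlapped or met except between 2nd and late-3rd instar. As a share of the chromosome 4 peaks of each library this was 3.65 and 4.90%, 16.4 and 4.04%, and 3.39 and 11.8%. The 2 replicates of each later stage thus lay further apart than the stages did. pan, a gene of 44.95 kb, had 7, 4 and 4 regions, and PMCA, of 30.7 kb, had 9, 5 and 2.

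Gene ends were used to place regions, since the gene table gives no strand, and either end of a gene counts. Midpoints within 1 kb of a gene end made up 53 of 157, 47 of 91 and 30 of 80 regions in stage order, or 33.8, 51.6 and 37.5%. The chromosome 4 span itself lies within 1 kb of a gene end for 24.0% of its length. On the large arms the shares were 59.7, 66.6 and 49.4%, where 28.7% of the span lies so close. With replicate 2 left out, the late-3rd instar share on chromosome 4 was 25.5%, close to the 24.0% of its span. With replicate 1 left out it was 51.2%, so the late-3rd instar share differed between the libraries. Genes on chromosome 4 are long, with a median of 10.1 kb for 80 protein-coding genes, against 2.15 kb on the large arms. Midpoints inside a gene but over 1 kb from any gene end made up 51.6, 36.3 and 55.0% of chromosome 4 regions, against 32.5, 23.6 and 35.3% on the large arms.

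Regions that both replicates support lay closer to gene ends at the first 2 stages. Among regions with both replicates the share at a gene end was 46.7, 88.2 and 35.7% in stage order. Among high-confidence peaks it was 23 of 32, 18 of 18 and 1 of 5, where the large arms had 72.5, 61.5 and 30.2%. The late-3rd instar peaks in PMCA, Mitf and apolpp and at Zyx lay between 1953 and 6704 bp from the nearest gene end, and the one at pan 282 bp. Within 500 bp, 22.3, 38.5 and 27.5% of the merged regions lay at a gene end.

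**Figure D5:**
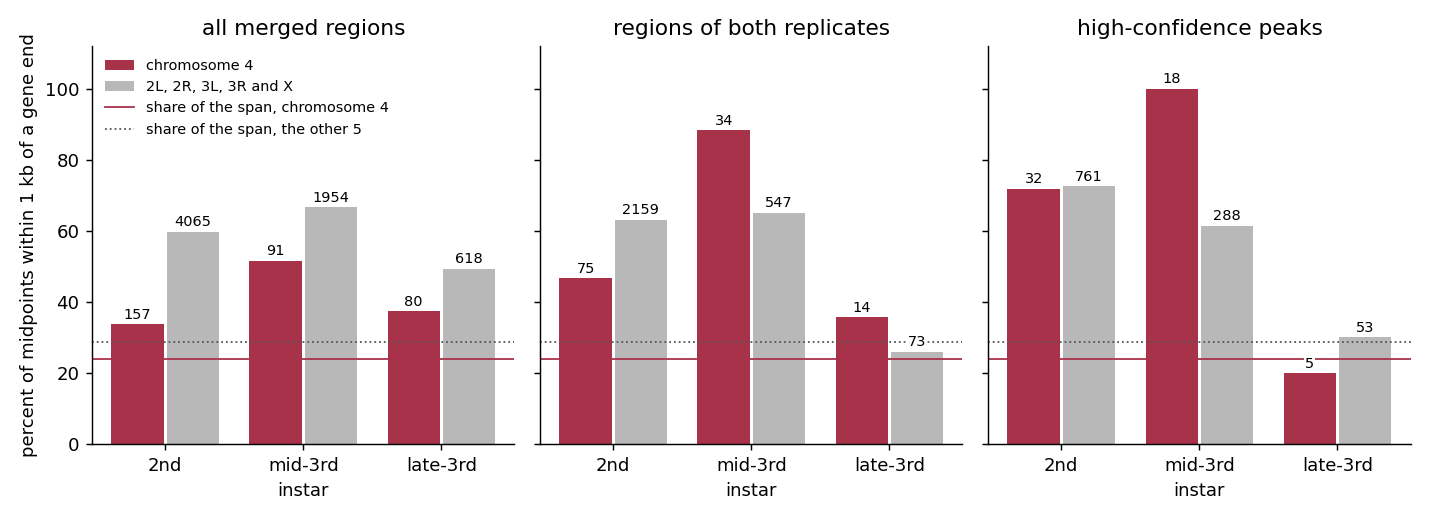
Percent of region midpoints within 1 kb of a gene end at each stage on chromosome 4 (red) and on 2L, 2R, 3L, 3R and X (grey), for all merged regions, regions of both replicates and high-confidence peaks, with the number of regions above each bar and lines for the share of the span that lies within 1 kb of a gene end (24.0% on chromosome 4, 28.7% on the others). All 18 mid-3rd instar high-confidence peaks of chromosome 4 lay at a gene end, and 1 of 5 at late-3rd instar.

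Most genes of chromosome 4 had a region at some stage. Of 114 annotated genes 74, 56 and 53 overlapped a merged region at the successive stages, and 43 did so at every stage. Of the 80 protein-coding genes 65, 50 and 46 did, or 81.2, 62.5 and 57.5%, and 12 had none at any stage. The lists below are read against these shares, with no test, because neighbouring genes share regions and long genes have more of them.

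All 8 housekeeping genes listed (RpS3A, eIF4G1, ATPsynbeta, Rad23, Crk, Tdg, gw and Asator) overlapped a region at every stage. At late-3rd instar 6 of the 8, all but RpS3A and Crk, rested on peaks of 1 library. The list was chosen with results known and is not complete, since ND-49 of the respiratory chain and MED26 and 4E-T had regions at the first 2 stages and 0 at late-3rd instar, and Mpv17 had none (these 4 named after their values were seen). The listed genes take part in translation, ATP synthesis, DNA repair, signalling and gene silencing, and their median length was 7.501 kb. Of 14 genes of signalling and the synapse 13, 8 and 9 overlapped a region. unc-13 overlapped none at any stage, but 1 region lay within 1 kb of its end next to Gyf at each stage. CaMKII, a calcium- and calmodulin-dependent kinase gene, had 4, 3 and 2 and Cadps had 2, 4 and 2. Syt7 overlapped 4 regions at 2nd instar and 0 at both later stages. The 2nd instar region it shared with Rad23 had a region of each later stage within 1 kb, and the others were single peaks of replicate 1.

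Of 13 developmental regulators, with a median length of 18.2 kb, 8, 7 and 6 overlapped a region, or 61.5, 53.8 and 46.2%. ci had 3, 2 and 3 regions and sv, a Pax2 gene, had 4, 1 and 2. zfh2 had 2 at 2nd instar and 0 later, and Sox102F had 1 at 2nd instar and 0 later. onecut and fd102C had none at any stage, nor did bt, the muscle gene, although it is 52.1 kb long. toy, the paralogue of ey, overlapped a region at late-3rd instar only, a single peak of 1 library. At 2nd instar 1 region lay outside toy but within 1 kb of its end.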

How the data were processed

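ORC2 ChIP-seq was analysed from the 6 deposited lists of larval fat body, grouped by stage from the labels. The authors aligned 40 nt paired-end reads with Bowtie2 and used MACS2 on each replicate (q-value under 0.05). The deposited high-confidence lists give the IDR, a value of the p-value and q-value kind, computed by the authors between replicates. Merged lists hold names and positions only, so peaks were counted by the replicate in their names. Read depth is not given, and inputs entered only through the authors' peak calling.

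The methods name dm3. On chromosome 4 the share of regions at a Release 6 gene end was highest without an offset in the mid-3rd and late-3rd instar merged lists and the 2nd and mid-3rd instar high-confidence lists, over offsets of up to 60 kb in steps of 1 kb. The exceptions were the 2nd instar merged list, highest at 1000 bp (35.7%, against 33.8% without an offset), and the late-3rd instar high-confidence list of 5 peaks, highest at -38000 bp. Release 6 genes (RefSeq) were therefore used, without conversion.

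Lists within 1 kb were matched, and sites joined at that distance. Spans ran from the first gene or region to the last. Libraries were compared with exact permutation tests, tested on simulated data. Regions named were all late-3rd instar high-confidence peaks, the 3 of lowest IDR at earlier stages, up to 10 high-confidence sites of 2 or more stages, and the 3 widest regions and longest gaps per stage, with their genes and 4 gene lists. Members and lists were chosen with earlier results of these data known. Strand, motifs and promoter sequence were not analysed here. Python 3.11.15, numpy 2.4.6, pandas 2.3.3 and scipy 1.17.1 were used.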

Additional observations from a re-analysis of the deposited data

How the results depend on the processing

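Of 81 alternatives, 57 counted as the same, 22 moved a value further and 2 lost a call. For tested results, the same meant an unchanged direction and side of 0.05, and none reversed. For most other values it meant a set fold range, wide enough to hold a late-3rd instar density ratio of 18.8 beside 12.7. Shares at late-3rd instar gene ends of 25.5% without replicate 2 and 51.2% without replicate 1, beside 37.5%, also counted as the same. Tests of the kept share could not pass 0.05 in any setting, so only their direction could have changed. Depth is unknown and 2 libraries per stage allow no test between single pairs of stages to pass 0.05, which limits every comparison here. The slope of chromosome 4 peak number was -34.5 (p = 0.0667, exact permutation test) when regions were counted by library. With replicate number as a replicate block it was -56.25 with p = 0.111 (exact permutation test within replicates), while the share of peaks had an adjusted p of 0.111. The 36 arrangements within replicates allow no p under 0.0556, so this test could not pass 0.05. Nothing in the labels pairs equal numbers. Replicate 1 had more chromosome 4 peaks at 2nd and late-3rd instar and fewer at mid-3rd instar, but the higher chromosome 4 share at every stage.

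The late-3rd instar count of chromosome 4 regions was 51.0% of the 2nd instar count, and 18.7% for regions with both replicates and 15.6% for high-confidence peaks; it was 38.6 to 43.0% with 1 replicate left out. The share of 2nd instar regions kept at mid-3rd instar was 78.7% for regions with both replicates and 100% for high-confidence peaks, and 26.8 to 43.9% with 1 mid-3rd instar replicate left out. At late-3rd instar it was 65.6% within 5 kb, 61.3% for both replicates and 75.0% for high-confidence peaks, and 24.8 to 25.5% with 1 replicate left out. Sites present at each stage made up 41.5% within 5 kb and 10.96% for both replicates, and 9.72 to 28.6% with 1 replicate left out.

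Longest gaps were 129, 213 and 710 kb in the high-confidence lists and, at the later stages, 213 and 501 kb among regions with both replicates. The share at gene ends was 22.3% within 500 bp at 2nd instar, and 71.9, 100 and 20.0% for high-confidence peaks. The cause was not tested in these cases beyond the shorter lists. Gene ends with high-confidence peaks and with each replicate left out were added after seeing the data. A density over the full reference chromosome was not run.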
